A study of Mus musculus with 9 samples.

Results

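Receptor tyrosine kinases (RTKs) of ependymoma were followed here as 10 genes: the fibroblast growth factor receptors Fgfr1, Fgfr2, Fgfr3 and Fgfr4, the epidermal growth factor receptor family Egfr, Erbb2, Erbb3 and Erbb4, the platelet-derived growth factor receptor Pdgfrb, and the hepatocyte growth factor receptor Met. They were taken by symbol from the gene list of the count matrices, which held 32285 mouse genes, and each symbol matched 1 row. Their unique molecular identifier (UMI) counts, each UMI standing for 1 captured transcript molecule, were read per mouse and per cell class.

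RTKs are single-pass membrane proteins that bind a growth factor outside the cell, pair up and phosphorylate each other on tyrosines inside it. FGF receptors recruit the adaptor Frs2, ERBB receptors recruit Grb2 and Shc1, and both feed the RAS–MAPK cascade, whose targets include the feedback inhibitors Spry and Dusp and the transcription factors Etv4 and Etv5. Within the ERBB family Erbb2 has no known ligand and acts as a partner, Erbb3 has a weak kinase, and Erbb4 is the neuregulin receptor of interneurons. In brain, Fgfr3 is an astrocyte and radial glia gene, Fgfr2 and Erbb3 are used by oligodendrocytes, and Pdgfrb marks pericytes and smooth muscle cells (together, mural cells).

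The samples were 5 EP ZFTA-RELA tumors from NestinCreERT2;Fus1 mice and 4 control brains from NestinCreERT2;TdT mice, all aged 6–8 weeks. In the tumor model a Rosa26-targeted, Nestin-driven ZFTA–RELA fusion allele followed by luciferase is switched on in embryonic radial glia by NestinCreERT2, so recombination follows the radial glia lineage and not a tumor cell type. Controls carry the same Cre allele with a TdTomato reporter and lack the fusion allele. Tissue was macrodissected with the choroid removed and sorted as live Ter119- cells before droplet-based 5′ single-cell RNA sequencing.

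Libraries held 14967680–69411387 UMIs in tumors and 101060608–178086164 in controls, and 15916 tumor cells and 20405 control cells were kept, with median depths of 2068–6512 and 2032–4115 UMIs per cell. Cells were put in classes by marker genes tested against free RNA, the transcripts outside cells that droplets also take up. Its level was read from the 3000 barcodes with fewest UMIs in each library. These had medians of 559–649 UMIs in tumors and 691–1338 in controls. Whether they were free of cells was not tested, and in tumor 3 they were also considered as cells. Of control cells 22.2% and of tumor cells 22.3% stayed unassigned. In the neural-progenitor-like class of tumors 11 of 11 markers were detected but none was among the 10 leading genes, and every other named class had at least 1 marker of its own there. The mural-like and neuroblast-like classes of controls each also had 2 markers of other classes among those genes. Neuron-like cells were 65.1–73.1% of control and 0.723–34.0% of tumor cells, and neural-progenitor-like cells were 10 cells in all 4 controls together and 45, 618, 137, 2464 and 1481 cells in tumors 1–5. Levels are given as UMIs of the gene for every 1000000 UMIs of the summed cells (CPM). Any 2 libraries shared 49–1936 cell barcodes, 0.54–2.56% of the shorter list.

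Promoter sequences are shown for 3 ERBB genes because Egfr and Erbb2 rose and Erbb4 fell in the comparison of tumors with controls. They are the bases before the annotated start (RefSeq, GRCm38.p6), 5′ to 3′ on the gene's strand, without exonic bases. Capitals mark a GC box, GGGCGG on either strand, to which Sp1-type factors bind. Egfr is at chr11:16751953-16752202 on the plus strand, Erbb2 at chr11:98412234-98412469 on the plus strand and Erbb4 at chr1:69108060-69108309 on the minus strand.
Egfr: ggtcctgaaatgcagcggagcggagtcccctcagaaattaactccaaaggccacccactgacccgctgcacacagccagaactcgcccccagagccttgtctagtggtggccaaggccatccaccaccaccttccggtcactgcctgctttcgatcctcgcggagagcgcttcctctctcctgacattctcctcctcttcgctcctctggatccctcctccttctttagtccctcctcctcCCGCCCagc
Erbb2: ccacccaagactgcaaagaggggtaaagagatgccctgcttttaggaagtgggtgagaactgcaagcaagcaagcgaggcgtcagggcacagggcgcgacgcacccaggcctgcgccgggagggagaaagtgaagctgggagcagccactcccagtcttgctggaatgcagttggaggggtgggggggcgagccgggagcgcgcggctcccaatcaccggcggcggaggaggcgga
Erbb4: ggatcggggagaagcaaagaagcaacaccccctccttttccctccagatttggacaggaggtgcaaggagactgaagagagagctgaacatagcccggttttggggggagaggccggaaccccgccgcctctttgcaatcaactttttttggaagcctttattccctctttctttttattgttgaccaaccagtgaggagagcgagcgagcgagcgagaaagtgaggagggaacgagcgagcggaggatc
The Egfr stretch held 1 GC box and had a GC content of 60.8%, and neither the Erbb2 stretch (66% over its window of 250 bases) nor the Erbb4 stretch at 54% held one. A GC box was in 32.7% of all 32851 RefSeq promoter windows. None of the 3 held an NF-kB consensus (in 7.25% of windows), an AP-1 site written TGANTCA (6.75%) or TATAAA (12.4%). Of the 10 genes 7 had a window in the reference table. These are descriptions of letters, and no binding was measured.

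The first comparison asked how much of each receptor's RNA the whole tumor tissue held relative to control brain, over all kept cells. In such sums, fewer cells of a type and less RNA per cell cannot be told apart. Fgfr1, Fgfr3, Egfr, Erbb2 and Pdgfrb rose in tumors, Erbb4 and Met fell, and Fgfr2 and Erbb3 did not pass the test. So 7 of 9 members tested were called, where 61.6% of all 17599 genes tested were, and in 7 members the tumors and controls did not overlap, where 57% of genes did not. The members' median log2 difference was 1.73, and that of all genes 0.04.

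**Figure D1:**
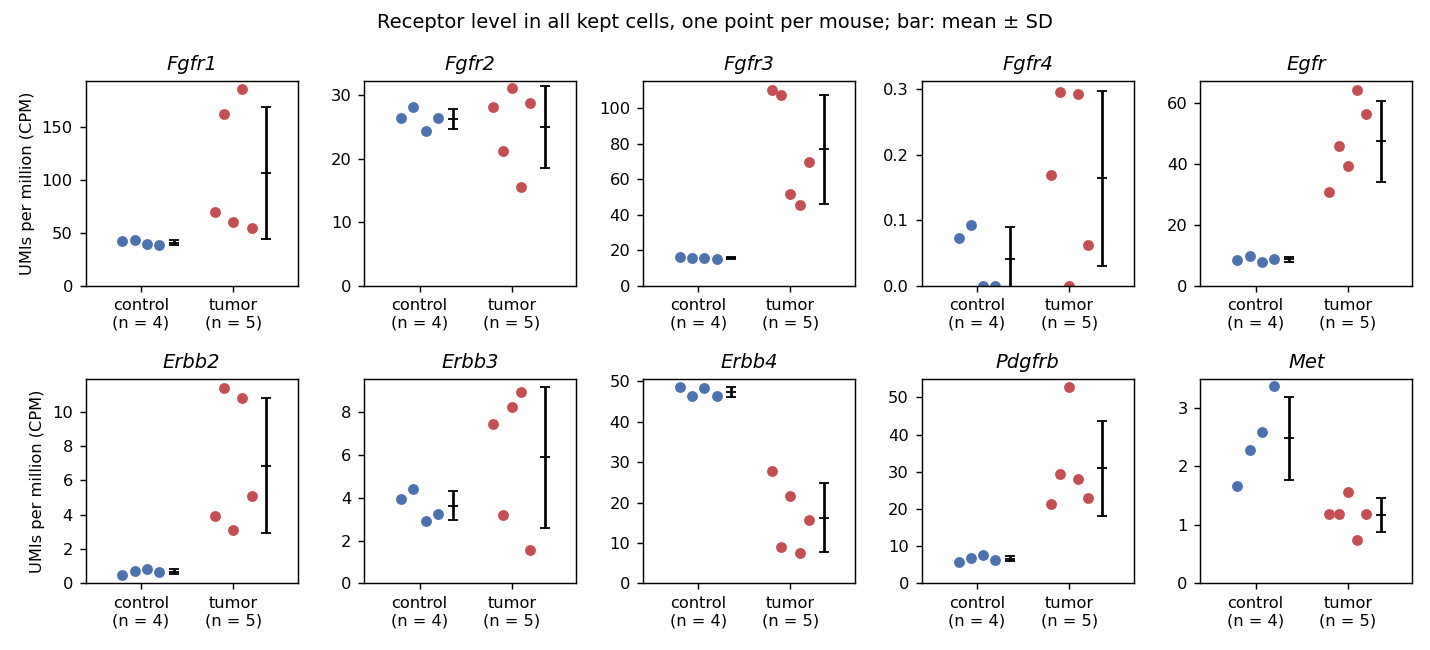
Level of each receptor over all kept cells in CPM, on its own linear axis from 0, with 1 point per mouse and the mean ± SD beside the points of 4 controls and 5 tumors. Egfr, Erbb2, Fgfr1, Fgfr3 and Pdgfrb lie higher in every tumor than in every control, and Erbb4 and Met lie lower.

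Fgfr1, the FGF receptor most widely used by neural cells, was at 42.1, 42.9, 39.3 and 38.8 CPM in controls 1–4 and at 69.6, 162, 60.7, 186 and 54.9 CPM in tumors 1–5. Tumors 2 and 4 were far above the other tumors, and all were above the controls. The log2 difference was 1.73 (SE 0.48, adjusted p = 0.0108, edgeR). Fgfr3 was at 14.8–16.1 CPM in controls and at 110, 108, 51.8, 45.2 and 69.5 CPM in tumors. The controls were tight and every tumor was well above them, with tumors 1 and 2 the highest. Its log2 difference was 2.56 (SE 0.31, adjusted p = 0.000251), a 5.91-fold rise. Fgfr2 was at 24.4–28.2 CPM in controls and 15.5–31.3 CPM in tumors, overlapping throughout, with a log2 difference of 0.14 (95% interval -0.24 to 0.53, adjusted p = 0.481). Without neuron-like cells its value changed sign to -0.47. Fgfr4, the receptor for FGF19-type hormones, had 3 UMIs in all controls and 18 in all tumors and was too low to test. The ratio of those pooled levels was 5.23 with a counting interval of 1.53–27.7.

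In the ERBB family 2 members rose and 1 fell. Egfr was at 8.43, 9.9, 7.83 and 8.66 CPM in controls and at 30.8, 46, 39.3, 64.4 and 56.5 CPM in tumors. The lowest tumor was more than any control, and tumor 4 was the highest. Its log2 difference was 2.74 (SE 0.32, adjusted p = 0.000214), a 6.70-fold rise. Erbb2, the partner receptor, was barely seen in controls at 0.509–0.82 CPM and reached 3.9, 11.4, 3.13, 10.8 and 5.1 CPM in tumors. Tumors 2 and 4, high for Fgfr1, were also the highest here. The log2 difference of Erbb2 was 3.65 (SE 0.58, adjusted p = 0.000727). Erbb4 went the other way, from 46.3–48.5 CPM in controls to 27.8, 8.95, 21.6, 7.49 and 15.6 CPM in tumors. It fell 2.60-fold (log2 -1.38, SE 0.28, adjusted p = 0.00232), and the value without neuron-like cells was -1.45. Erbb3 was at 2.9–4.42 CPM in controls and 1.55–8.93 CPM in tumors, with tumors on both sides of the controls (log2 0.93, 95% interval -0.12 to 1.97, adjusted p = 0.109). Without tumor 5 it passed the test (log2 1.19).

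Pdgfrb was at 5.89, 6.88, 7.64 and 6.31 CPM in controls and 21.3, 29.4, 52.7, 28.2 and 22.9 CPM in tumors. Tumor 3 stood above the rest and no tumor met a control. The log2 difference was 2.44 (SE 0.28, adjusted p = 0.000200), and 1.25 without neuron-like cells. Met was at 1.67–3.36 CPM in controls and 0.744–1.56 CPM in tumors. Its fall of 0.86 on the log2 scale (SE 0.31, adjusted p = 0.0344) was called in 11 of 18 alternatives and in 5 of the 9 fits that left out 1 mouse. It was lost without control 2, 3 or 4 or tumor 4, with values of -0.90, -0.84, -0.67 and -0.71.

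Cell markers moved in the same comparison. The summed level of 9 neuron markers was 20784–23178 CPM in controls and 416–8192 in tumors, with 7 of 9 lower in tumors, none higher and none at 0. All 10 mural markers were higher (51.1–76.0 CPM in controls, 201–1253 in tumors), all 11 neural progenitor markers were higher (195–223 against 395–2326), and 6 of 9 astrocyte markers were higher (1643–1744 against 1579–4553). So were all 8 endothelial markers (55.0–104 against 373–2427), 11 of 12 microglia or macrophage markers (719–871 against 3395–14020) and 7 of 8 markers of oligodendrocyte precursors (OPCs, 90.7–106 against 254–1349). None of 7 choroid plexus markers was called, though tumor 1 stood apart. Their sum was 1168–4258 CPM in controls, 6691 in tumor 1 and 4.50–11.6 in tumors 2–5. The part of all these markers in the receptor values was not tested beyond the sums without neuron-like cells. Those sums still held the unassigned cells, 4525 in controls and 3554 in tumors, and can hold neurons. When cells were grouped by their variable genes, the group named neuron had 1579 cells. Of these, 27 in controls and 24 in tumors were neuron-like by the gate. In the sums without neuron-like cells 6 members stayed past the threshold, with log2 differences of 1.58 for Fgfr1, 1.69 for Fgfr3, 2.09 for Egfr and 2.61 for Erbb2.

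By cell class the receptors were spread over different cells. Among named classes with at least 50 cells in a mouse, the highest mean level in tumors of Egfr and Erbb2 was in neural-progenitor-like cells, of Fgfr3 and Met in astrocyte-like cells, of Fgfr1 and Pdgfrb in mural-like cells, of Fgfr2 and Erbb3 in oligodendrocyte-like cells and of Erbb4 was in OPC-like cells. With 1 more marker in the gate 7 of these 9 highest classes were unchanged, and with every cell thinned to 2000 UMIs, by share of cells with a UMI, 6 of 9. Erbb2 moved to endothelial-like cells in both, Erbb3 to OPC-like cells in the first, and Fgfr1 to astrocyte-like and Met to neuroblast-like cells in the second. The highest class of Met rests on 11 UMIs in 1054 astrocyte-like cells (3.14 ± 2.0 CPM).

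**Figure D2:**
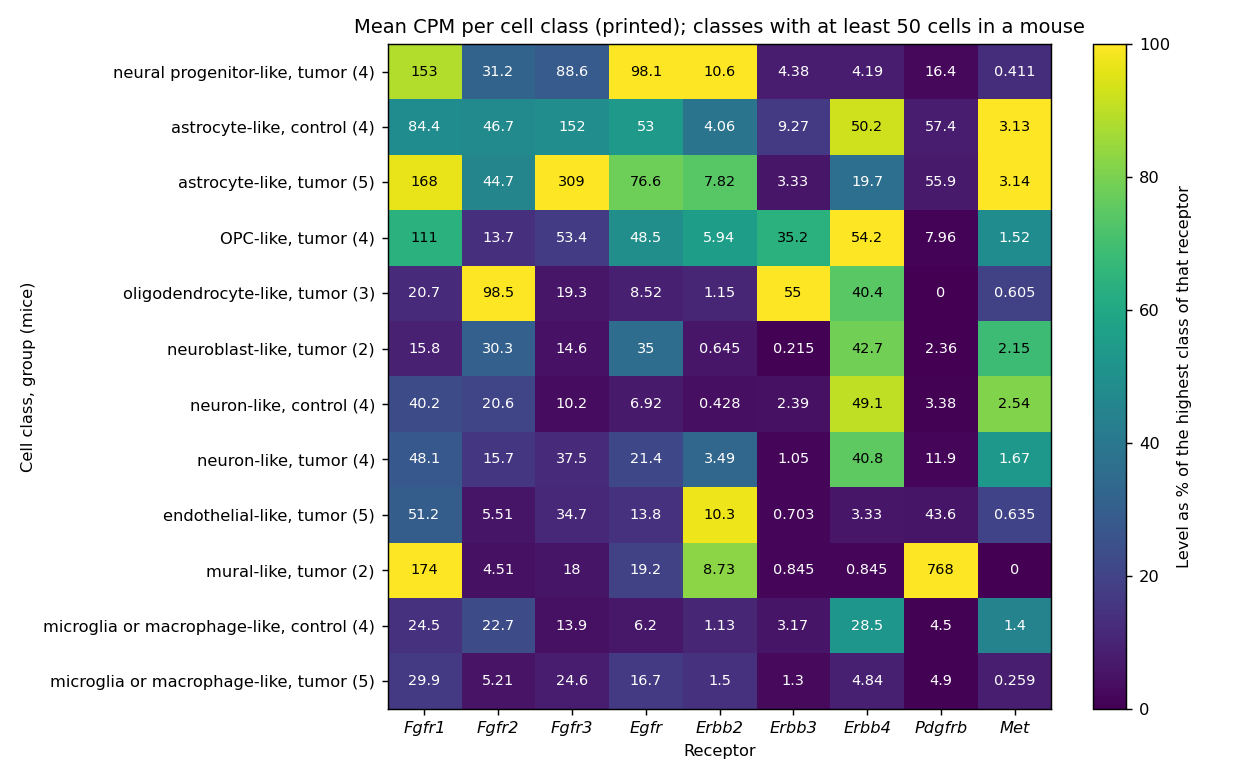
Mean CPM of 9 receptors (columns) in cell classes of control or tumor mice (rows, mice in brackets) with at least 50 cells of the class, and color as the percentage of the receptor's highest row. Fgfr3 is brightest in astrocyte-like cells, Pdgfrb in mural-like cells and Egfr in neural-progenitor-like cells.

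Among these classes the order of Fgfr1 in tumors was mural-like cells (216 and 131 CPM in 2 tumors), astrocyte-like cells (168 ± 71, SD, n = 5), neural-progenitor-like cells (153 ± 73, n = 4), OPC-like cells (111 ± 57, n = 4), endothelial-like cells (51.2 ± 37, n = 5) and neuron-like cells (48.1 ± 16, n = 4). The first 4 of these overlapped and are not separated by their spread. The endothelial-like and neuron-like means lay below the mean free RNA of the same tumors, at 91.9 and 73.7 CPM. The OPC-like value depended on cells at the gate's minimum, with 75.1 ± 36 CPM with 1 more marker in the gate, and 32.7% of OPC-like tumor cells sat in the 5 Leiden clusters (groups of cells alike in their variable genes) that were named neural progenitor. In classes below the minimum, pooled over tumors, Fgfr1 was at 287 CPM (exact Poisson interval 231–351) in 43 fibroblast-like cells and 206 CPM (168–250) in 68 ependymal-like cells, against 164 CPM (144–186) in all 232 mural-like cells. Fgfr3 had a clear top, with 309 ± 100 CPM in astrocyte-like cells of tumors and 88.6 ± 42 CPM in neural-progenitor-like cells. The free RNA of the tumors with the latter class held Fgfr3 at a mean of 89.3 CPM. A UMI of Fgfr3 was found in 57.2% of astrocyte-like tumor cells, and in 41.4% after thinning. Fgfr2 in oligodendrocyte-like cells was 140, 138 and 18.1 CPM in tumors 1, 2 and 4, so its highest class rested on 2 of 3 mice.

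Egfr was at 98.1 ± 48 CPM (n = 4) in neural-progenitor-like cells, at 76.6 ± 26 in astrocyte-like cells (n = 5) and at 48.5 ± 20 in OPC-like cells (n = 4). Neighbours in this order overlapped. With 1 more marker in the gate the OPC-like value was 28.6 ± 10 CPM. The first mean rests on tumor 3 at 171 CPM, and the medians of the first 2 classes were 74.7 and 72.4 CPM. The free RNA of the tumors with the first class held Egfr at a mean of 52.3 CPM, above the OPC-like mean. In tumor 4 free RNA held 82.6 CPM, above the neural-progenitor-like level of that tumor. In oligodendrocyte-like cells Egfr was at 8.52 CPM. The share of neural-progenitor-like cells with an Egfr UMI was 36.0% and 18.99% after thinning, at median depths of 2953–7367 UMIs per cell. In microglia- or macrophage-like tumor cells, which should lack the gene, it was 6.64% and 3.27% after thinning, at median depths of 2395–6202. Erbb2 was at 10.6 ± 2.2 CPM in neural-progenitor-like and 10.3 ± 2.0 in endothelial-like cells (n = 4 and n = 5), which did not differ beyond their spread. Erbb3, at 55.0 ± 30 CPM in oligodendrocyte-like (n = 3) and 35.2 ± 17 in OPC-like cells (n = 4), was at 4.38 ± 5.2 in neural-progenitor-like cells. That mean rests on tumor 3 (12.1 CPM from 7 UMIs), the median was 2.46 CPM, and with 1 more marker in the gate the mean was 1.19 ± 1.1. Erbb4 was at 54.2 ± 25 CPM in OPC-like, 42.7 in neuroblast-like, 40.8 ± 15 in neuron-like and 40.4 ± 9.3 in oligodendrocyte-like cells. These 4 classes overlapped. In neural-progenitor-like cells it was at 4.19 ± 2.0 CPM, below the free RNA of the same tumors (mean 19.6 CPM). Below the minimum of cells, 134 neuroblast-like cells of controls held Erbb4 at 213 CPM pooled (exact Poisson interval 176–256).

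Pdgfrb was at 468 and 1070 CPM in mural-like cells of tumors 2 and 4, with a UMI in 90.2% of them. In astrocyte-like cells it was at 55.9 ± 35 CPM in tumors (n = 5) and 57.4 ± 11 in controls (n = 4). Mean free RNA there was 30.6 and 4.19 CPM. In endothelial-like tumor cells it was at 43.6 ± 53 CPM (n = 5), a mean that rests on tumor 5 at 136 CPM. It was at 16.4 ± 10 CPM in neural-progenitor-like cells (7.81% of cells, 3.44% after thinning), and the free RNA of those tumors held 31.5–43.0 CPM. In each of tumors 2–5 its level in these cells was below free RNA. In oligodendrocyte-like cells of 3 tumors it was at 0 CPM. In the 43 fibroblast-like tumor cells, below the minimum, it was at 212 CPM pooled (exact Poisson interval 164–269). Control mural-like cells were 32 in all, with 48 Pdgfrb UMIs and a pooled level of 372 CPM (exact Poisson interval 275–494), against 779 (734–826) in tumors. Such intervals cover counting error only. The 10 leading genes of the control cells included the endothelial Flt1, Cldn5, Ptprb and Ly6a, and those of the tumor cells did not. The part of this in the 2 levels was not tested.

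Within classes found in both groups the question was whether a receptor differed between tumor and control cells of the same class. In the 3 classes tested, most cells of a class sat in different Leiden clusters in the 2 groups. Of astrocyte-like cells cluster 8 held 77.7% in controls and none in tumors, and cluster 25 held 70.3% in tumors and none in controls, with 27.8% of the tumor cells in the neural progenitor clusters. Of neuron-like cells clusters 2 and 1 held 56.2% in controls and 3.12% in tumors, and cluster 23 held 71.0% in tumors and 0.0142% in controls. Of microglia- or macrophage-like cells cluster 9 held 71.0% in controls and 0.198% in tumors, and cluster 27 held 68.6% in tumors and 1.01% in controls. The differences below are between those cells, and whether they are like cells in the 2 groups was not tested. In astrocyte-like cells 2 of 6 members tested rose, Fgfr1 and Fgfr3, where 34.4% of 7855 genes were called. No member was free of overlap between the groups there, while 30% of genes were. Fgfr3 was at 135, 143, 152 and 178 CPM in controls and 423, 307, 384, 156 and 276 CPM in tumors. Tumor 4 lay among the controls and the other tumors above them (log2 1.04, SE 0.30, adjusted p = 0.0151). Fgfr1 was at 55.5–112 CPM in controls and 79.9–257 in tumors (log2 0.95, SE 0.34, adjusted p = 0.0472), and this call was kept in 2 of the 9 fits that left out 1 mouse, those without tumor 1 and without tumor 5. The call of Fgfr3 was lost without control 2 (log2 1.01). For Egfr the log2 difference was 0.54 (95% interval -0.02 to 1.10, adjusted p = 0.120), for Erbb4 -1.25 (adjusted p = 0.0844, called without tumor 1 at log2 -1.65) and for Pdgfrb -0.04 (-0.87 to 0.79, adjusted p = 0.954).

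In neuron-like cells of 4 controls and tumors 1, 2, 3 and 5, Fgfr3, Egfr, Erbb2 and Pdgfrb rose, 4 of 9 members tested, against 16.4% of 14992 genes. Egfr and Erbb2 did not overlap between the groups, as for 23.2% of genes. Erbb2 rested on 12 UMIs in tumors and 23 in controls and reached the low-count filter only in tumors, where it was high. Its part in both counts is a description only. Egfr was at 7.09, 8.09, 5.29 and 7.19 CPM in controls and 15.1, 22.2, 16.2 and 32 CPM in tumors (log2 1.42, SE 0.27, adjusted p = 0.00470). The log2 differences were 1.88 for Fgfr3 (adjusted p = 0.00271), 2.79 for Erbb2 (adjusted p = 0.00391) and 1.55 for Pdgfrb (adjusted p = 0.0428, called in 4 of 10 alternatives, lost without tumor 2 or tumor 5 and too low to test without any 1 control, as was Erbb2). Erbb4, the receptor neurons are known for, was at 47.5–50.7 CPM in controls and 35.6, 25.9, 41.4 and 60.4 CPM in tumors, which spread to both sides (log2 -0.42, SE 0.20, adjusted p = 0.163). Erbb4 fell there without tumor 5 (log2 -0.65). In all 4 tumors Egfr, Fgfr3, Erbb2 and Pdgfrb of neuron-like cells were below the free RNA of the same library, in which Egfr was at 26.8–51.4 CPM.

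In microglia- or macrophage-like cells 4 of 5 members tested were called, Fgfr3 and Egfr higher and Fgfr2 and Erbb4 lower, where 47.2% of 9373 genes were called. Fgfr2 and Erbb4 did not overlap, as for 43.4% of genes. Egfr reached the low-count filter only in tumors, and Fgfr2 and Erbb4 only in controls. Whether these members were tested thus depended on the group where they were high, and the counts above are descriptions only. Erbb4 was at 31.2, 26, 28.3 and 28.5 CPM in controls and 6.68, 5.17, 2.97, 1.85 and 7.51 CPM in tumors (log2 -2.11, SE 0.37, adjusted p = 0.000826). The same libraries' free RNA held Erbb4 at 38.1–44.9 CPM in controls and 14–32.5 CPM in tumors, more than the cells in all 9 mice. The levels of Fgfr2 and Fgfr3 in these cells were also below free RNA in all 9 mice, and those of Egfr in 8 of 9. Levels below free RNA cannot be told apart from background, in these cells and in the neuron-like cells above. In the 9 fits that left out 1 mouse the call of Erbb4 was kept in 9, that of Fgfr2 in 6 and that of Fgfr3 in 4. Egfr could be tested in only 6 of them and was called in 4, and in the others it was too low to test.

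**Figure D3:**
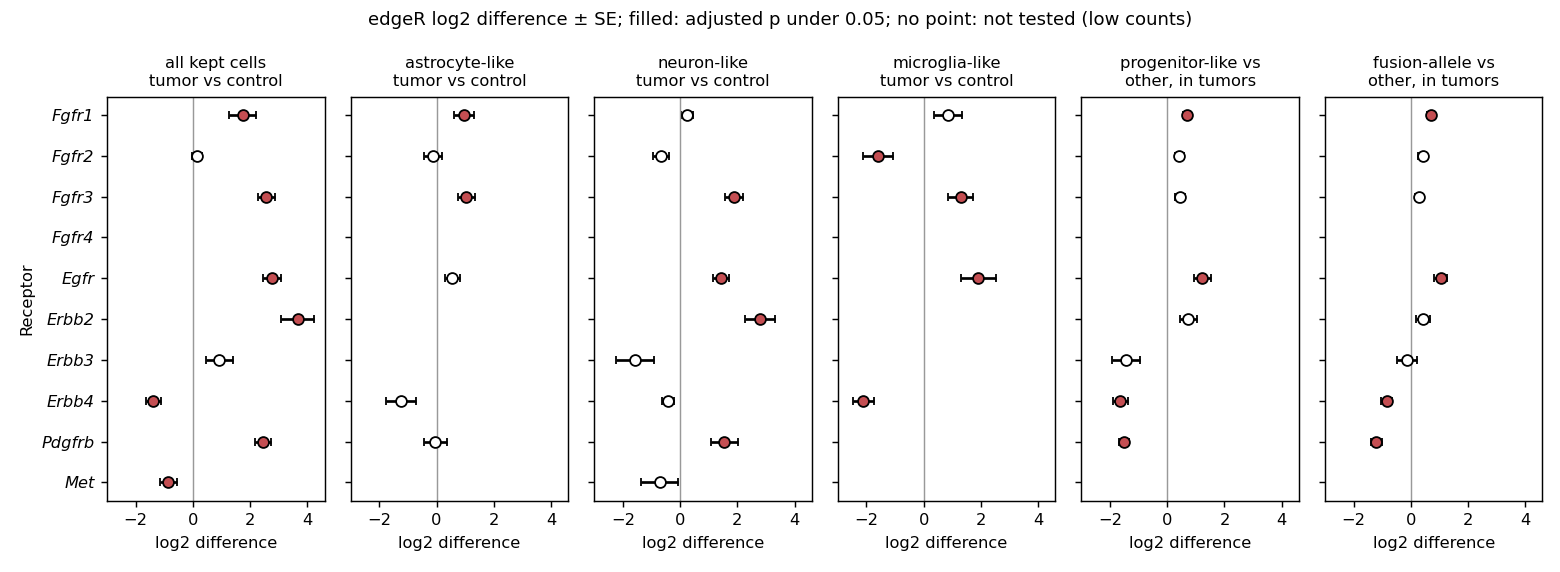
Log2 difference ± SE of each tested receptor (rows; filled where it passed the test), between tumors and controls over all kept cells and in 3 cell classes, and between neural-progenitor-like or fusion-allele cells and other cells of the same tumors. Egfr was called above 0 within tumors and over all kept cells, and Erbb4 and Pdgfrb lie below 0 within tumors.

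Free RNA differed between the groups as a whole. An upper estimate of its share in these classes was 38.4–55.5% in controls and 3.81–24.0% in tumors, and control cells had more Malat1, a nuclear RNA (7.33% against 3.57% of UMIs in astrocyte-like, 10.5% against 6.11% in neuron-like and 3.55% against 1.56% in microglia- or macrophage-like cells). Mitochondrial UMIs were 12.9% in controls against 5.69% in tumors in astrocyte-like cells, 8.63% against 4.21% in microglia- or macrophage-like cells and nearly level in neuron-like cells (6.95% against 6.82%). With the estimated free RNA subtracted, none of 6 members tested was called in astrocyte-like cells, and 1 of 6 tested, Egfr, was called in neuron-like cells. Fgfr3 in neuron-like cells was then at log2 4.15, just short of the threshold (adjusted p = 0.0536). In microglia- or macrophage-like cells only Fgfr1, which had not been called, still had enough counts to test, so the 4 calls there could not be tested. The log2 difference of Fgfr3 in astrocyte-like cells was then 0.46. Whether a member's difference was unlike in 2 classes could not be settled, since exact permutation tests of 4 controls against 4 or 5 tumors, adjusted over 24 pairs, cannot pass the threshold for a single pair.

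Endothelial-, oligodendrocyte- and OPC-like cells were too few in controls for the planned minimum of 50 cells, and a minimum of 20 was tried after the counts were seen. Erbb4 fell in endothelial-like cells (log2 -3.09, SE 0.69, adjusted p = 0.00758) and in oligodendrocyte-like cells (log2 -1.07, SE 0.36, adjusted p = 0.0493), where 22.7% and 23.8% of genes were called. Fgfr1 in OPC-like cells had a log2 difference of 1.37 (adjusted p = 0.0801), with 31.9% of genes called. Cluster 24 held 96.2% and 95.3% of the endothelial-like cells of controls and tumors, while OPC-like cells were mostly in cluster 13 in controls (80.8%) and in cluster 30 in tumors (65.0%). Oligodendrocyte-like cells shared cluster 17 (45% and 69.8%), and 53.6% of those of controls were in cluster 10. Of those of tumors, 24.3% were in cluster 30, the main cluster of OPC-like tumor cells. Erbb4 of endothelial-like tumor cells, 0.95–6.12 CPM, was below the free RNA of each library, and so was that of control cells (25.2–34.7 CPM).

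The next comparison was within tumors, between neural-progenitor-like cells and all other kept cells of the same 4 tumors, with the mouse as a block. Fgfr1 and Egfr were higher in neural-progenitor-like cells and Erbb4 and Pdgfrb lower, 4 of 8 members tested, where 30.9% of 14363 genes were called. Fgfr1, Fgfr2, Egfr and Erbb2 were higher in 4 of 4 tumors and Erbb4, Pdgfrb and Met lower in 4 of 4, and 51.3% of genes had 1 direction in every tumor. None of the 10 members was a gate marker.

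**Figure D4:**
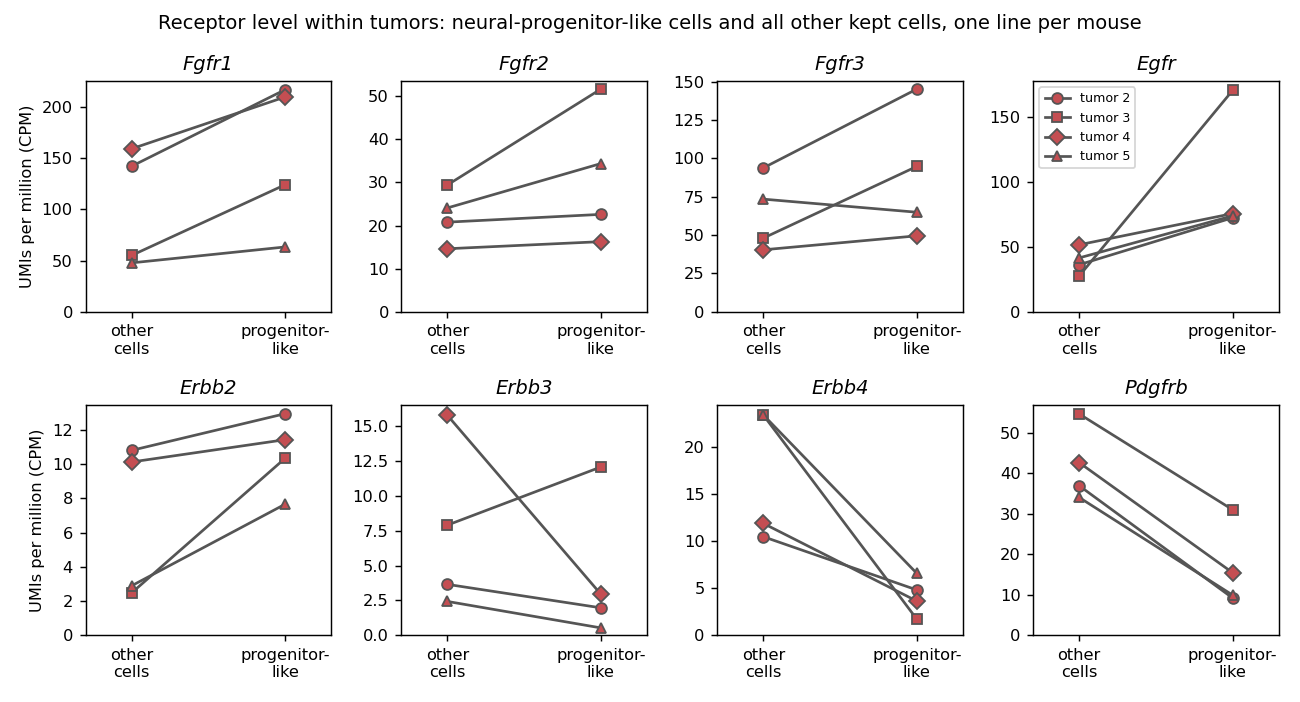
Level in CPM, on linear axes from 0, of 8 receptors in neural-progenitor-like cells and in all other kept cells of tumors 2–5, with lines joining the 2 values of a tumor. Lines for Egfr and Fgfr1 rise toward the progenitor-like cells in all 4 tumors, and lines for Erbb4 and Pdgfrb fall.

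Egfr was at 72.4, 171, 75.6 and 73.9 CPM in neural-progenitor-like cells of tumors 2–5 and at 36.2, 27.6, 51.6 and 41.5 CPM in the other cells. Tumor 3 was far above the other 3, which were nearly equal (log2 1.23, SE 0.29, adjusted p = 0.0155). In tumor 4 both Egfr levels were below free RNA (82.6 CPM) and cannot be told apart from background. In tumors 2, 3 and 5 the progenitor-like level was above free RNA (34.5–51.4 CPM). Fgfr1 was at 217, 124, 210 and 63.3 CPM against 142, 55, 159 and 47.7 CPM. Its level varied more between tumors than between the cells of a tumor, and the call rested on the mouse block (log2 0.68, SE 0.14, adjusted p = 0.00912; adjusted p = 0.573 with no block). The other FGF receptors did not pass the test, with log2 differences of 0.43 for Fgfr2 (95% interval 0.06 to 0.79, adjusted p = 0.0760) and 0.45 for Fgfr3 (0.06 to 0.85, adjusted p = 0.0801). Fgfr3 passed it without tumor 5 (log2 0.65).

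Erbb2 was at 12.9, 10.3, 11.4 and 7.65 CPM against 10.8, 2.48, 10.1 and 2.89 CPM, nearly level in tumors 2 and 4 (log2 0.74, SE 0.31, adjusted p = 0.107). Erbb4 was at 4.82, 1.72, 3.64 and 6.58 CPM against 10.5, 23.4, 11.9 and 23.4 CPM (log2 -1.65, SE 0.26, adjusted p = 0.00282). No tumor's progenitor-like value reached any of the values of other cells. For Erbb3 the log2 difference was -1.45 (SE 0.49, adjusted p = 0.0573), and tumor 3 went against the other tumors, without which Erbb3 passed the test (log2 -1.88). Pdgfrb was at 9.21, 31, 15.5 and 9.94 CPM against 36.9, 54.7, 42.6 and 34 CPM (log2 -1.51, SE 0.18, adjusted p = 0.000720). In each of these tumors the progenitor-like levels of Erbb4 and Pdgfrb were below free RNA (14.0–22.9 and 31.5–43.0 CPM). Such levels cannot be told apart from background. The calls of Egfr, Erbb4 and Pdgfrb were kept in all 11 alternatives, and that of Fgfr1 in 10 of 11. Against other cells without the neuron-like and unassigned, a reference added after the data were seen, Erbb2 (log2 1.21) and Erbb3 (log2 -1.84) passed as well.

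Cells with a UMI of the fusion allele or its luciferase were compared in the same way as a set chosen by no endogenous gene. There were 5848 such cells in the 5 tumors and none in controls. They made up 20.0–86.2% of neural-progenitor-like, 3.45–63.1% of OPC-like, 2.67–58.8% of astrocyte-like and 0.822–25.1% of microglia- or macrophage-like cells. In tumor 4 they were also 78.4% of 37 neuron-like and 89.3% of 28 neuroblast-like cells, and 22.2% of mural-like cells. Whether the transgene UMIs of a cell came from the cell itself or from free RNA was not tested, so the set may hold cells without the recombined allele. Fgfr1 (log2 0.69, SE 0.14, adjusted p = 0.00509) and Egfr (log2 1.04, SE 0.22, adjusted p = 0.00703) were higher in them, and Erbb4 (log2 -0.84, SE 0.19, adjusted p = 0.0101) and Pdgfrb (log2 -1.21, SE 0.19, adjusted p = 0.00169) lower. These 4 of 8 members tested stand beside 31.5% of 14079 genes called, and 40.1% of genes had 1 direction in every tumor. Egfr was at 63.1, 63.1, 124, 70.7 and 66.0 CPM in these cells of tumors 1–5 and at 29.1, 35.6, 29.7, 42.8 and 51.3 CPM in the others. In tumor 4 both Egfr levels were below free RNA (82.6 CPM). Both within-tumor comparisons use the same tumors and overlap in their cells.

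Neural-progenitor-like cells with 3 or more cycling markers held Egfr at 62, 61.2 and 59.5 CPM in tumors 2, 4 and 5, and those with none at 81.3, 188, 81.8 and 81.8 CPM in tumors 2–5. The cycling values were below the others, and Fgfr1 showed no such order, at 215, 199 and 66.1 CPM against 209, 126, 207 and 59.6 CPM. In tumor 4 both Egfr values were below free RNA (82.6 CPM). These are levels with no test.

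The ligands of these receptors came from lists of pathway genes. Over all kept cells 1 of 9 FGF ligands tested rose and 5 fell, with a median log2 difference of -1.498 beside 0.04 for all genes, of which 32.3% rose and 29.4% fell. The one that rose was Fgf15, a hormone-like FGF also made by embryonic neural progenitors, with 2 UMIs in all controls and 9867 in tumors (15.6–165 CPM, pooled ratio 4300 with a counting interval of 1190–35514). Fgf8 of the list, below the count filter, had 3 UMIs in controls and 77 in tumors (pooled ratio 22.4 with a counting interval of 7.37–111). The list did not hold Fgf3 and Fgf4, neighbours of Fgf15 that also rose. Fgf10, Fgf5 and Fgf9 fell, by 2.70, 3.12 and 2.85 on the log2 scale. Of 8 EGF-family ligands tested, Hbegf rose (log2 1.64) and the neuregulin Nrg1 fell (log2 -0.94), and the other 6 did not pass. Of the ligands of PDGFRB and MET, Pdgfb (log2 2.71) and Pdgfd (log2 2.33) rose and Hgf fell (log2 -1.28, adjusted p = 0.0433, called in 3 of 9 fits without 1 mouse).

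**Figure D5:**
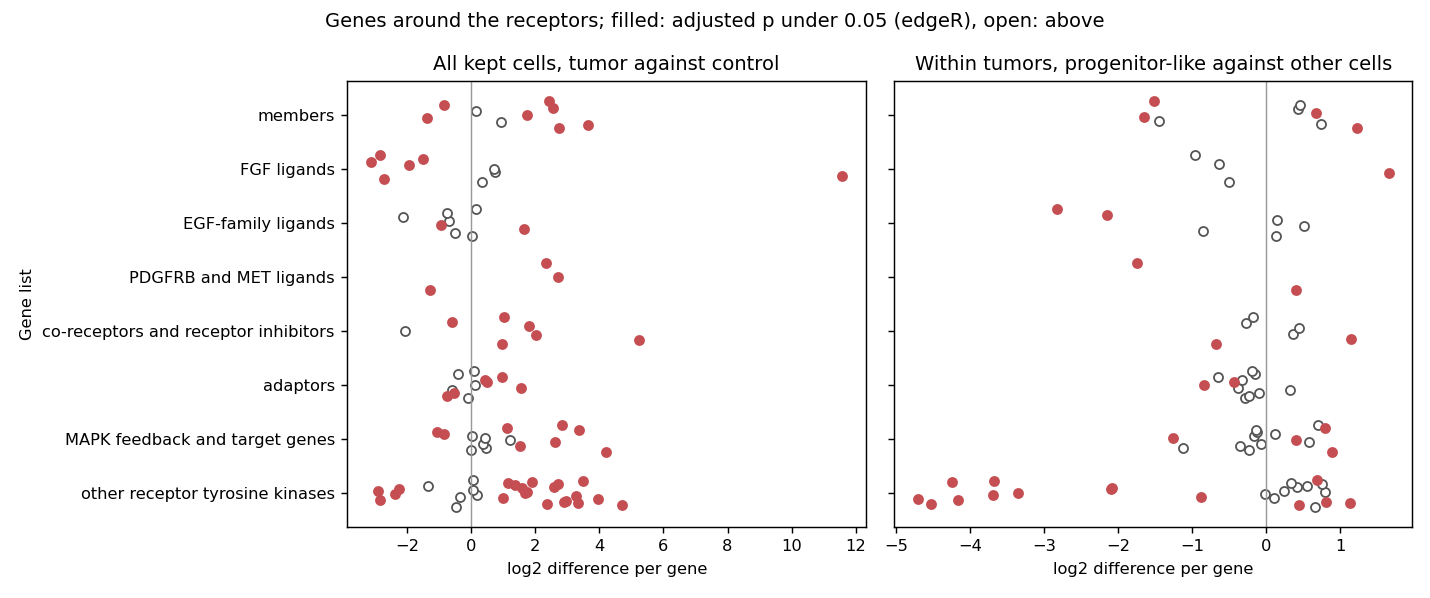
Log2 difference of each tested gene of the members and the pathway lists (rows), 1 point per gene, filled where it passed the test, over all kept cells between tumors and controls and within tumors between neural-progenitor-like and other cells. FGF ligands that passed lie below 0 over all kept cells except Fgf15, and other receptor tyrosine kinases lie on both sides within tumors.

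Within tumors the ligand genes differed by cell class. Fgf15 was at 179 ± 17 CPM in neural-progenitor-like cells (log2 1.66 against other cells, adjusted p = 0.00695). Tgfa, a ligand of EGFR, was at 1.54, 0, 2.29 and 2.28 CPM in neural-progenitor-like cells and at 10.5, 32, 19.7 and 10.5 CPM in other cells (log2 -2.83, SE 0.34, adjusted p = 0.000678). It was highest in oligodendrocyte-like (80.4 ± 32 CPM) and OPC-like cells (64.8 ± 41). Pdgfb, the ligand of PDGFRB, was at 309 ± 98 CPM in endothelial-like cells and 139 ± 28 in neural-progenitor-like cells, where it was higher than in other cells (log2 0.41, adjusted p = 0.0411, called in 1 of 4 fits without 1 tumor). Pdgfd was lower in them (log2 -1.74, adjusted p = 0.00903, called in 3 of 4).

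Co-receptors, adaptors and targets were described in the same way. Fgfrl1, an FGF receptor without a kinase, had the largest rise of its list (log2 5.23, SE 0.70, adjusted p = 0.000345 over all kept cells) and was higher in neural-progenitor-like cells (log2 1.15, adjusted p = 0.0157). In that list of co-receptors and inhibitors 5 of 7 tested rose, Lrig1 (log2 1.82) and Lrig3 (log2 1.02) among them, and Lrig2 fell (log2 -0.60, called in 7 of 9 fits without 1 mouse). Called shares here and below stand beside 61.6% of all genes. Of 11 adaptors 4 rose, including Gab1 (log2 1.57), and 2 fell, Cblb (log2 -0.76) and Frs2 (log2 -0.54, called in 7 of 9 such fits). Of 14 MAPK feedback and target genes tested 6 rose, with Ccnd1, which drives cell cycle entry, at log2 4.21, Spry1 at 3.36 and Etv4 at 2.62, and 2 fell, Spred2 (-0.85) and Spred3 (-1.08). Of these lists within tumors, where 12.7% of genes were higher and 18.2% lower, 3 of 14 MAPK genes were higher in neural-progenitor-like cells, Ccnd1 (log2 0.89), Spry2 (0.79, called in 2 of 4 fits without 1 tumor) and Etv5 (0.40, in 1 of 4), and Phlda1 was lower (-1.25, in 3 of 4). None of 11 adaptors was higher and 2 were lower, Gab2 (-0.83) and Grb2 (-0.43), and of 6 co-receptors and inhibitors tested 1 was higher, Fgfrl1, and 1 lower, Errfi1 (-0.68).

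Of 27 other RTKs tested over all kept cells 17 rose and 4 fell, beside 32.3% and 29.4% of all genes, with a median log2 difference of 1.59. The endothelial receptors Tie1 (log2 3.49) and Kdr (3.29) and the OPC receptor Pdgfra (1.59, itself a gate marker) rose, and the neurotrophin receptor Ntrk3 (-2.26) and Flt3 (-2.84) fell. Within tumors 4 of 23 were higher in neural-progenitor-like cells and 10 lower, beside 12.7% and 18.2% of all genes. The collagen receptors Ddr1 (log2 1.14) and Ddr2 (0.81, called in 2 of 4 such fits) and Tyro3 (0.68) were higher, and the endothelial Flt1 (-4.16), the phagocyte receptor Mertk (-3.36) and the microglial Csf1r (-4.52, itself a gate marker) were lower.

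Patterns over classes were compared by Pearson's r of log2(CPM + 10) over 12 class-by-group means, which share libraries and free RNA, among 17225 genes. Fgfr3 was most like Slc7a10 (r = 0.977), Gpam (0.962) and Gldc (0.961). Among the genes most like Egfr were Gm266 (0.965) and Rfx4 (0.959). Erbb3 followed 2810468N07Rik (0.985), Bcas1 (0.982) and A930003A15Rik (0.981), and Pdgfrb followed Gm17501 (0.969), Col1a2 (0.959) and Lpp (0.958). For Fgfr1 the nearest was Ddit4l (0.958), then Cped1 (0.942) and Sdc2 (0.938), and for Fgfr2 Efhd1 (0.907), Gprc5b (0.904) and B230206L02Rik (0.895). Erbb2 lay nearest to Il17rd (0.948), an inhibitor of FGF signaling on the co-receptor list, then Slc25a20 (0.943) and Prr5 (0.940). Erbb4 lay nearest to Supt6 (0.938), Pcsk1n (0.938) and Ctnna2 (0.927), and Met to Rimklb (0.943), Rab30 (0.942) and Cntfr (0.935). Fgfr4 had too few UMIs. These values are descriptions with no test.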

How the data were processed

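Single-cell libraries (10x 5′ chemistry) of 4 control and 5 EP ZFTA-RELA mice were used, each a separate mouse per the labels. The authors deposited raw UMI counts, not normalized, which they made with Cell Ranger on mm10. The submitters' processing notes name Cell Ranger 7 and Scanpy 1.8.2, and the matrix headers an earlier Cell Ranger. Control 4 has shorter feature and barcode lists than its matrix (80865 barcodes for 80887 columns), and its barcodes were used by column.

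The 10000 barcodes with most UMIs and 200–6000 genes were considered, of 75222–86516 in controls and 9001–26341 in tumors. The least of them held 1473–2695 UMIs in controls and 500–2113 in tumors, and in tumor 3 all 9001 were considered. The part of this difference in cell shares and levels was not tested. The component with more mitochondrial UMIs of a 2-component Gaussian mixture (scikit-learn 1.9.0) was removed. Doublets were then taken out with Scrublet as run by scanpy 1.11.5, at a rate of 0.8% for every 1000 barcodes. In tumors 4 and 5 the removed cells held only 3.68% and 4.84% mitochondrial UMIs on average. A cell joined a class with at least 3 of its markers at a Poisson p of 0.001 over free RNA, the level in the 3000 barcodes with fewest UMIs. No deposited barcode had fewer than 468 UMIs, and those 3000 had medians of 559–649 UMIs in tumors and 691–1338 in controls. Whether they were free of cells was not tested, and in tumor 3 they were also considered as cells. For neural progenitor markers the reference was the mean free RNA of controls, and a cell joined that class only when it joined no other. This gating rule was set after the data were seen. UMIs summed per mouse, for classes with 50 cells, went into quasi-likelihood fits (edgeR 4.0.16 under R 4.3.3; TMM, low-count filter, Benjamini-Hochberg over all genes, threshold 0.05), with the mouse as a block within tumors. Log2 differences come from TMM-scaled fits and differ from ratios of plain CPM. DESeq2 1.42.0 and limma 3.58.1 were alternatives, and the fits were checked on simulated counts. Floors are 3 UMIs, and intervals are at 95% with the degrees of freedom of each test.

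All 10 members were reported, and from each pathway list up to 3 genes that rose and 3 that fell with the smallest p and the same direction without each sample. Some genes that the rules name are not reported here. The members and lists were chosen with earlier results of these data known. Replicate numbers did not pair the mice (correlations of same-numbered tumor and control samples 0.0042–0.0479). Promoter and gene positions came from RefSeq and GENCODE on GRCm38.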

Additional observations from a re-analysis of the deposited data

Results flagged for a closer look

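Of 69 groups of 4 or 5 mice tested, 7 held a mouse far from the others, and chance gives about 1 in 20. In neural-progenitor-like cells Egfr was at 171 CPM in tumor 3 and at 72.4–75.6 CPM in the other tumors. In endothelial-like cells of tumor 5 Egfr was at 33.7 CPM (others 5.71–12.4) and Pdgfrb, the mural receptor, at 136 CPM (others 1.14–31.2). Over all kept cells Pdgfrb was at 52.7 CPM in tumor 3 (others 21.3–29.4), and in astrocyte-like cells of control 3 it was at 40.4 CPM (others 62.4–63.4). In neuron-like cells Fgfr1 was at 72.4 CPM in tumor 1 (others 37.3–43.2) and Fgfr2 at 32.0 CPM in tumor 5 (others 9.86–10.8).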

How the results depend on the processing

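Members called were 7 over all kept cells, 2 in astrocyte-like, 4 in microglia- or macrophage-like and 4 in neuron-like cells, and 4 in each within-tumor comparison. Leaving out 1 mouse gave 6–8, 0–3, 1–5 and 2–5, then 4–5 for neural-progenitor-like and 4–4 for fusion-allele cells. The counts moved by over 1.5 times without any 1 of 7 mice in astrocyte-like cells (0 without control 2, 1 without control 1, 3 or 4 or tumor 2, 3 or 4) and without 4 of 9 in microglia- or macrophage-like cells (1 without control 4, 2 without control 1 or 3 or tumor 2). In neuron-like cells they were 2 without any 1 control, where 5 members were tested and Erbb2 and Pdgfrb were too low to test. Other settings moved the counts. Astrocyte-like cells gave 1 with a mitochondrial limit of 10% (3 controls had enough cells), 1 with Leiden clusters and 0 with free RNA subtracted. Microglia- or macrophage-like cells gave 2 with Leiden clusters, 0 with free RNA subtracted (only Fgfr1 could be tested) and 2 without cells with a transgene UMI (added after seeing the data). Neuron-like cells gave 2 with the mitochondrial limit and 1 with free RNA subtracted. Neural-progenitor-like cells gave 7 with Leiden clusters, where tumor 1 (240 such cells) was included as well.

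With the replicate number as a block, which did not pair the mice, neuron-like cells gave 2 members and 983 genes of 2454, and all kept cells 6 members and 8792 genes of 10849. With no replicate block fusion-allele cells gave 1 member and 570 genes of 4435, and neural-progenitor-like cells 3 members and 1020 genes of 4436.

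Genes called over all those tested also moved. Neuron-like cells gave 1120–1276 without 1 control and 4356 with free RNA subtracted, neural-progenitor-like cells 2580 without tumor 2, and fusion-allele cells 2365 without tumor 2 and 2951 without tumor 4.

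Signs reversed only in values that had not passed the test. Fgfr2 over all kept cells was -0.47 without neuron-like cells. In astrocyte-like cells Fgfr2 was 0.0657 with Leiden clusters, 0.0161 without transgene cells and -0.266 to 0.0433 without 1 mouse (above 0 without tumor 1). Egfr was -0.0653 with free RNA subtracted. Pdgfrb was 0.0406 with no low-count filter, 0.327 with Leiden clusters, 0.136 without transgene cells and -0.360 to 0.214 without 1 mouse (above 0 without control 2 or 4 or tumor 2, 4 or 5). Fgfr1 in neuron-like cells was -0.147 to 0.350 without 1 mouse (below 0 without tumor 1) and -0.0682 with free RNA subtracted. Erbb3 in fusion-allele cells was -0.360 to 0.143 without 1 mouse (above 0 without tumor 4) and 0.102 with the mitochondrial limit. The cause was not tested. Of 297 member values under settings other than leaving out 1 mouse, 256 kept direction and side of the threshold. In some of those settings the mice with enough cells also changed.

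Tumor-against-control fits of mural- and neural-progenitor-like cells could not be fitted, and Leiden clusters gave no neuron-like cells in tumors to fit. Depth limits Fgfr4, Met and Erbb2, and receptor levels at or below free RNA say nothing about the cells that hold them.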

Other observations

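Fgf15, Fgf3, Fgf4 and Ccnd1 are neighbours on mouse chromosome 7, and the values of their locus were read after Fgf15 and Ccnd1 had been seen to rise. Fgf3 (chr7:144838083-144844436, GRCm38), Fgf4 (chr7:144847367-144865243), Fgf15 (chr7:144896531-144900953) and Ccnd1 (chr7:144929931-144939925) lie within 101.8 kb. Fgf3 and Fgf4 were not in the list of FGF ligands. Fgf3 had 67 UMIs in controls (0.783–1.14 CPM) and 24341 in tumors (18.3–481 CPM, log2 7.99, SE 1.11, adjusted p = 0.000427). Fgf4 had 0 UMIs in all controls and 3915 in tumors, at least 794-fold over a floor of 3 UMIs over the control group. Both were higher in neural-progenitor-like cells than in other tumor cells, Fgf3 with a log2 difference of 1.68 (adjusted p = 0.0141) and Fgf4 with 1.60 (adjusted p = 0.0148).

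Of 14 protein-coding genes within 500000 bases of Fgf15, 12 were tested, 7 were higher in tumors and 2 lower, where 32.3% of all genes were higher and 29.4% lower. The 7 include Fgf3, Fgf4, Fgf15 and Ccnd1. The rises of Fgf15 and Ccnd1 were the reason for reading the locus. Fgf4 and Fgf15, with 0 and 2 UMIs in controls, reached the low-count filter only in tumors. The count is therefore a description and cannot be weighed against the shares of all genes. The others were Fadd (log2 2.53, adjusted p = 0.000584), Tpcn2 (log2 1.32, adjusted p = 0.00368) and Ano1 (log2 0.96, adjusted p = 0.0282). LTO1, which in the annotation overlaps the end of Ccnd1, had a log2 difference of 0.61 (SE 0.31, adjusted p = 0.107), Ppfia1 of -0.24 (adjusted p = 0.307), Cttn of -0.66 (adjusted p = 0.00496) and Shank2 of -2.14 (adjusted p = 0.0227). Within tumors Ano1 (log2 -3.57, adjusted p = 0.000639) and Shank2 (log2 -1.47, adjusted p = 0.0117) were lower in neural-progenitor-like cells than in other cells. Fadd (log2 0.05, adjusted p = 0.908) and Tpcn2 (log2 -0.45, adjusted p = 0.197) did not pass that test.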
